A study of Rattus norvegicus with 21 samples.

Results

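The comparison described here sets the bladders of 3 rats with spinal cord injury (SCI) of 8 weeks' standing against the bladders of 3 uninjured control rats of the same week. These 6 samples were taken by their labels from the 21 samples of the series, which also holds controls at 0, 2 and 16 weeks and SCI bladders at 2 and 16 weeks. The animals were male Sprague Dawley rats of wild-type genotype, 6 to 7 weeks old at the start, and injury was a complete transection of the spinal cord at thoracic level 8. Whether the controls had sham surgery, or any other procedure, is not given in the sources used here. RNA came from the whole thickness of the bladder wall, so urothelium, smooth muscle, connective tissue, vessels and nerves were measured together. In such bulk tissue, fewer cells of a type and less RNA per cell cannot be told apart.

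The bladder stores urine while its smooth muscle, the detrusor, is relaxed and empties when parasympathetic nerves make the detrusor contract, a cycle that brain stem centres coordinate with the urethral sphincter. Transection above the sacral cord cuts this coordination, and after an areflexic period voiding returns as a spinal reflex in which detrusor and sphincter contract against each other. The bladder wall of such animals is known to thicken, with growth of the detrusor and remodelling of the matrix between its bundles.

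Counts were given per Ensembl rat gene. The files do not pair these identifiers with names, and 0 of the 32754 identifiers could be matched to the RefSeq gene table used here, so genes are described as sets and 4 identifiers are given with their values. For the same reason the labelled tissue was not checked against bladder markers, and functional gene lists were not counted. Total counts of the 8-week libraries lay between 9157219 and 10740933, and 19110 to 19589 genes had a count. After low-count genes were removed, 15225 genes were tested, and levels are given in CPM, the count of a gene relative to the total of its library, after TMM scaling, which sets libraries level on genes that change little. A pair of libraries stood apart from their groups. SCI replicate 2 at 8 weeks was nearer to the controls than its group, and its values are given separately throughout. Replicate 2 of the 0-week controls stood nearer to the 8-week controls than its group on the genes called at 8 weeks. That did not hold for the share of counts of the 10 genes most abundant at 0 weeks, which was 14.2% in this library. The library enters the shared estimate of the spread and 1 ranking of genes.

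SCI and control bladders differed at 8 weeks in 1281 genes (8.41% of those tested), called at an adjusted p below 0.05 by edgeR's quasi-likelihood test with Benjamini-Hochberg adjustment. Of these, 499 genes (3.28%) were higher after SCI and 782 (5.14%) were lower. The losses were larger than the gains. Among the genes that were lower, the median log2 fold change was -0.94, with quartiles of -0.63 and -1.35, and the extreme was -4.66. Among the genes that were higher, the median was 0.65, with quartiles of 0.47 and 0.85, and the extreme was 2.47. A log2 change of at least 1 was reached by 343 of the lower genes (43.9%) and by 56 of the higher genes (11.2%). A log2 change of at least 2 was reached by 76 lower genes and 4 higher genes. The median standard error of a called fold change was 0.20 on the log2 scale.

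Across all 15225 genes the changes were balanced around 0, with a median log2 fold change of 0.0032 and 50.4% of genes on the positive side. The split between directions rested on this TMM scaling. When libraries were scaled by their total count alone, 2435 genes were higher and 653 lower (78.9% higher, against 39% with TMM), and the median of all genes moved to 0.19. The 6 libraries were also compared gene by gene without a model. The 3 SCI values lay wholly above or below the 3 control values in 4356 genes (28.6% of those tested). That was so for 487 of the 499 higher genes and 748 of the 782 lower genes, which had been selected on the same values.

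**Figure D1:**
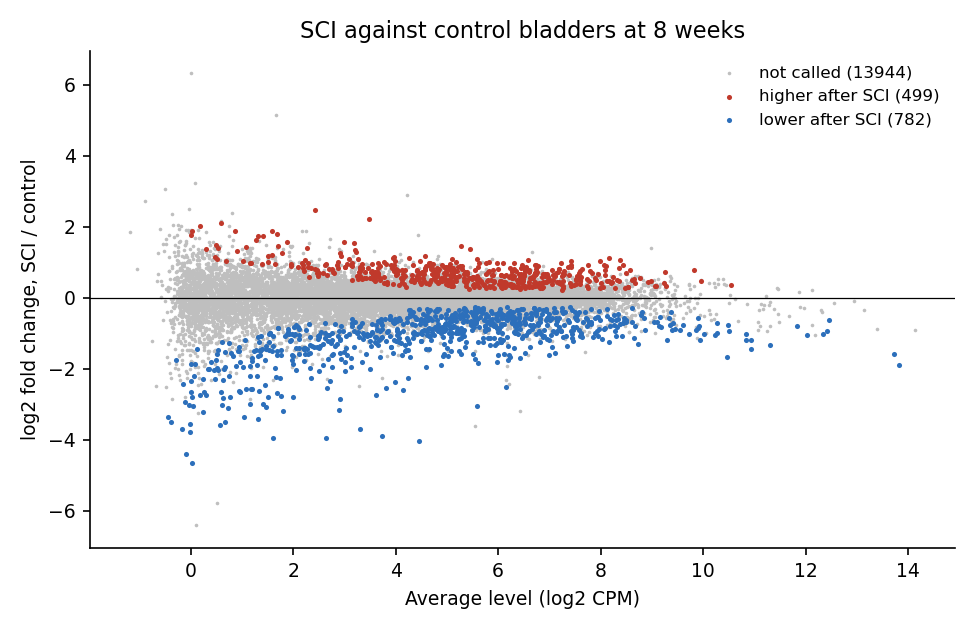
Each point is 1 of 15225 genes at 8 weeks, with its average level (log2 CPM) on the horizontal axis and its log2 fold change, SCI over control, on the vertical axis. The 499 genes called higher (red) stay within a log2 change of 2.47, whereas the 782 called lower (blue) reach -4.66. Of the genes at 7 log2 CPM or more, 9.32% were called lower and 6.1% higher.

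The calls were spread over the whole range of expression and were most frequent, in both directions, among the most highly expressed genes. Of 1772 genes with an average level under 1 log2 CPM, 12 (0.677%) were higher and 57 (3.22%) were lower. Of 4621 genes between 5 and 7 log2 CPM, 198 (4.28%) were higher and 256 (5.54%) were lower. In the most highly expressed class, the 1524 genes at 7 log2 CPM or more, 93 (6.1%) were higher and 142 (9.32%) were lower. The called changes were largest among weakly expressed genes. From the lowest to the highest of 5 level classes, their median on the log2 scale, without regard to sign, was 2.04, 1.33, 0.81, 0.62 and 0.68. The plot of fold change against level shows both features.

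The number of calls depended on single libraries. Without SCI replicate 2 the same test called 2585 genes, with 1064 higher and 1521 lower, of which 1214 were among the 1281. Without SCI replicate 1 it called 32 genes (3 higher and 29 lower), and without SCI replicate 3 it called 61 (7 higher and 54 lower). All 32 and all 61 were among the 1281. Leaving out control replicate 1, 2 or 3 gave 541, 433 and 676 calls. Libraries outside the comparison, which enter the same fit, also mattered, and without replicate 2 of the 0-week controls 2175 genes were called. When all 0-week controls were left out, 2466 genes were called, which included 1277 of the 1281.

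The most abundant transcripts of the bladder took a smaller share of the reads after SCI. To choose them without use of the 8-week values, genes were ranked by their level in the 0-week controls. The 10 highest took 10.8%, 11.6% and 11.1% of all counts in the 8-week controls, and 5.83%, 8.74% and 6.07% in SCI replicates 1, 2 and 3. The groups did not overlap, and SCI replicate 2 lay between the other SCI libraries and the controls. All 10 genes had a negative log2 fold change, with a median of -0.89 and a range of -1.90 to -0.08, and 4 of them were called lower. Of the 50 highest, 15 were called lower, against 5.14% of all genes and 9.32% of those at 7 log2 CPM or more. A negative log2 fold change was found in 44 of these 50. Their share of all counts was 22.5%, 24.4% and 23.7% in controls and 15%, 19.9% and 15.7% after SCI. Among the 200 highest, 41 were lower and 10 were higher, and the median log2 fold change was -0.24 beside 0.0032 over all genes. When replicate 2 of the 0-week controls was left out of the ranking, 9 of the 10 genes were the same, and their share was 10.6% to 11.3% in controls and 5.95%, 8.64% and 6.28% after SCI. Of the 50 genes of that ranking, 13 were called lower and 1 higher, and their median log2 fold change was -0.37 in place of -0.65. The median over 200 genes was then -0.15, and 9 of the 10 highest genes had a negative log2 fold change.

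**Figure D2:**
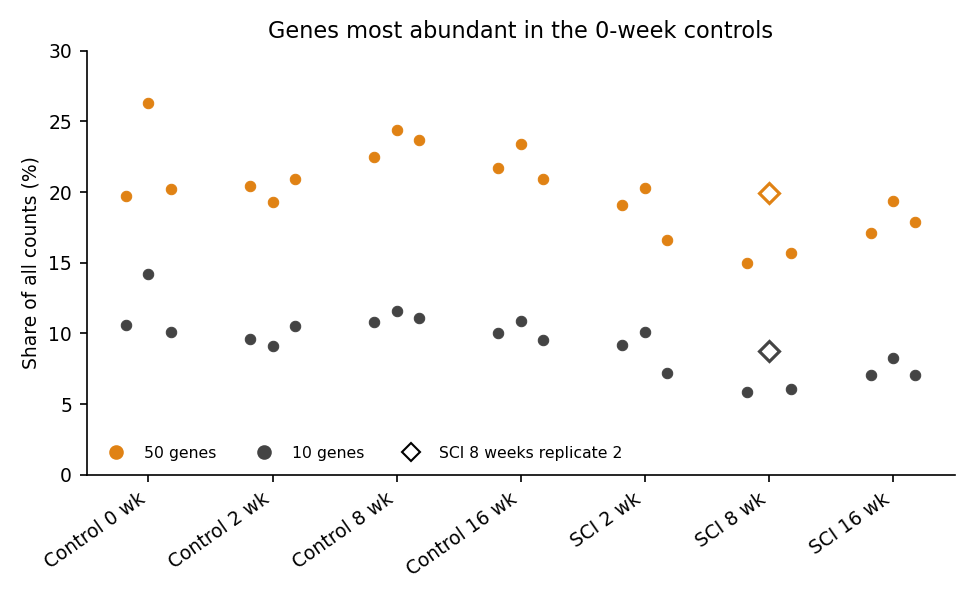
The share of all counts (%) taken by the 10 (grey) and 50 (orange) genes most abundant in the 0-week controls is plotted for each of the 21 libraries by group, with SCI replicate 2 at 8 weeks as an open diamond. The SCI libraries at 8 weeks, at 5.83% to 8.74% for 10 genes, lie below the 8-week controls at 10.8% to 11.6%, and SCI replicate 2 is the nearest of them to the controls.

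The same share for 10 genes ran from 9.13% to 10.5% in 2-week controls and from 7.2% to 10.1% in SCI bladders of 2 weeks, so those groups overlapped. At 16 weeks it was 9.51% to 10.9% in controls and 7.03% to 8.28% after SCI, without overlap, and SCI replicates 1 and 3 of 8 weeks held the lowest values among the 21 libraries. The called genes, by their selection, moved the make-up of the libraries further. The 782 lower genes took 15.9%, 16.5% and 15.2% of counts in controls and 7.59%, 10.9% and 8.35% after SCI. The 499 higher genes took 3.21%, 2.99% and 3.18% in controls and 5.9%, 4.32% and 5.6% after SCI. These shares describe the selection and are no further test of it.

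The 4 identifiers show how single genes behaved in the 6 libraries. For each direction the called genes were ordered by the size of their change, those under an average of 1 log2 CPM or with overlapping groups were passed over, and the first pair was taken. That left 475 higher and 692 lower genes to choose from.

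ENSRNOG00000026053 was the gene with the largest gain. It stood at 2.13, 1.83 and 1.69 CPM in controls and 9.27, 16.5 and 5.77 CPM after SCI. These are 18, 16 and 15 reads against 108, 151 and 59, so the control level rests on few reads. SCI replicate 2 was the highest library for this gene, unlike its usual place. The group means were 1.88 ± 0.224 and 10.5 ± 5.46 CPM (SD, n = 3), and the log2 fold change was 2.47 with a standard error of 0.64 (adjusted p = 0.0283, edgeR). Its log2 fold change was 1.97 at 2 weeks (adjusted p = 0.378) and 2.39 at 16 weeks (adjusted p = 0.0437, edgeR), and leaving out single libraries of 8 weeks or changing the fit moved its 8-week adjusted p between 0.00286 and 0.104. The call was lost without any 1 of the 3 controls, SCI replicate 1 or SCI replicate 3, while the log2 fold change stayed between 2.395 and 2.764.

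ENSRNOG00000019718 was second. Its levels were 3.9, 9.28 and 2.47 CPM in controls and 17.7, 25.4 and 29.7 CPM after SCI, and the lowest SCI library stood above the highest control. The means were 5.22 ± 3.59 and 24.3 ± 6.11 CPM (SD, n = 3), with a log2 fold change of 2.21 and a standard error of 0.41 (adjusted p = 0.00946, edgeR). At 2 and 16 weeks its log2 fold changes were 0.18 (adjusted p = 0.991) and 0.68 (adjusted p = 0.262). The difference between its 8-week and 2-week effects was 2.03 on the log2 scale, which did not pass the test over all genes (adjusted p = 0.407, edgeR). Without SCI replicate 3 its 8-week adjusted p was 0.0542 in edgeR, with a log2 fold change of 2.04.

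ENSRNOG00000003745 had the largest loss by the rule, and it rested on 1 control. Its levels were 257, 13.1 and 13.4 CPM in controls and 3.35, 10.2 and 4.11 CPM after SCI. Control replicate 1 stood far above all other libraries of the week. The log2 fold change was -4.03 with a standard error of 1.12 (adjusted p = 0.0358, edgeR). Without that library the log2 fold change was -1.19 and the adjusted p was 0.427. The call was also lost without SCI replicate 1 (adjusted p = 0.165) or 3 (adjusted p = 0.138), and in edgeR with the 8-week groups alone (adjusted p = 0.118). In those fits the log2 fold change was -3.74, -3.84 and -4.03. The means of 94.4 ± 141 and 5.87 ± 3.73 CPM (SD, n = 3) carry the same limit. At the other weeks its log2 fold change was positive, at 1.92 at 2 weeks (adjusted p = 0.834) and 0.78 at 16 weeks (adjusted p = 0.686, edgeR).

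ENSRNOG00000025551 was the other. It was low in all libraries, with 7.56, 5.62 and 5.74 CPM in controls and 0.172, 0.982 and 0.0978 CPM after SCI. The SCI values stand for 2, 9 and 1 reads, against 64, 49 and 51 in controls. SCI replicate 2 again was the SCI library nearest to the controls. The log2 fold change was -3.96 with a standard error of 1.01 (adjusted p = 0.0271, edgeR), and the call was lost without any 1 of 4 libraries. The adjusted p was 0.136 without SCI replicate 1, 0.115 without SCI replicate 3, 0.06 without control replicate 1 and 0.0541 without control replicate 2, while the log2 fold change stayed between -3.51 and -4.04. At 2 weeks the log2 fold change was -0.80 (adjusted p = 0.957) and at 16 weeks -1.07 (adjusted p = 0.407, edgeR).

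**Figure D3:**
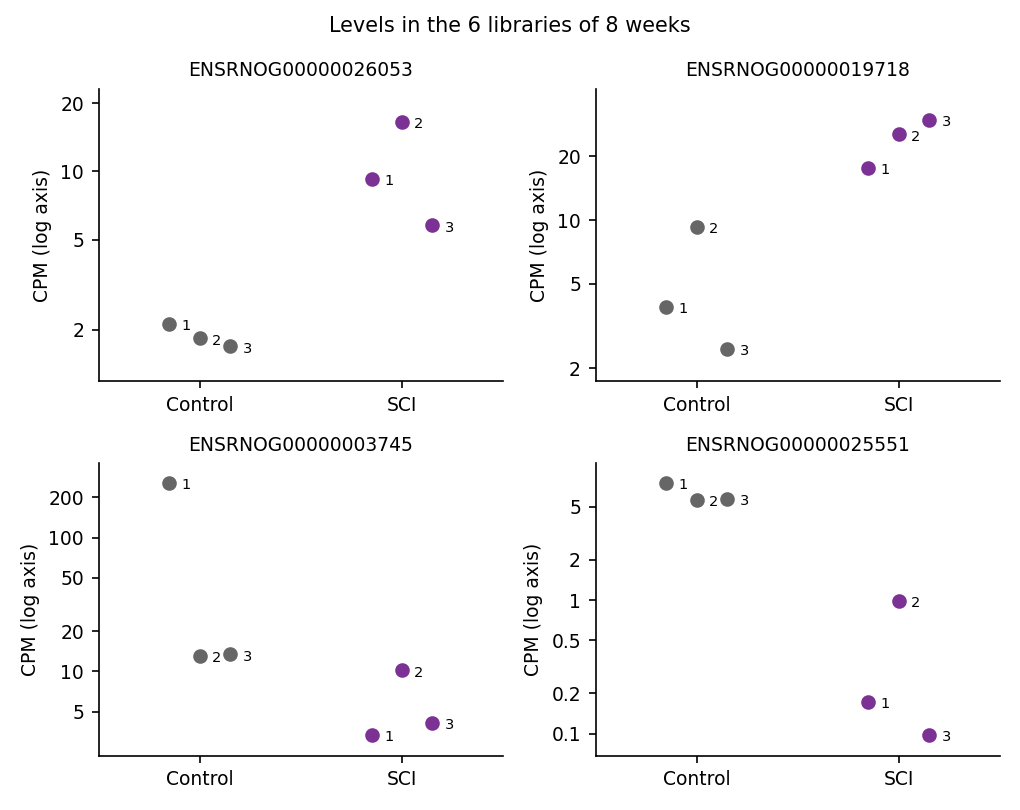
Each panel gives 1 gene in CPM on a log axis for the 3 controls (grey) and 3 SCI libraries (purple) of 8 weeks, with the replicate number beside each point. The groups do not overlap in any panel, control replicate 1 stands at 257 CPM for ENSRNOG00000003745, and SCI replicate 2 is the SCI library nearest to the controls in both lower panels.

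SCI replicate 2 differed from the other SCI bladders of its week by a smaller median change from the controls. Over all 15225 genes, SCI replicates 1 and 3 lay closest together, with a root mean square difference of 0.39 on the log2 scale. Replicate 2 was 0.555 from replicate 1 and 0.482 from replicate 3, and its distances to the 3 controls were 0.552, 0.527 and 0.545. It was therefore about as far from SCI replicate 1 as from the controls. Replicates 1 and 3 were farther from every control, at 0.678 to 0.708 and 0.621 to 0.633. The controls were 0.486 to 0.498 apart. The total count of replicate 2, 9204566, lay within the range of the controls, 9157219 to 9487928.

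The median SD of a gene across the 3 SCI libraries was 0.184 on the log2 scale, equal to that across the 3 controls, and it was 0.113 when replicate 2 was left out. Leaving out replicate 1 or 3 gave 0.149 and 0.188. Of the 3 pairs of SCI libraries, replicates 1 and 3 therefore varied least.

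To measure how far each SCI bladder had moved, 500 genes were picked 3 times, each time with 1 SCI library left out, as those with the smallest p-values in the test of the remaining pair against the controls. The left-out library was then read on them. Replicate 1 showed a median difference of 1.01 log2 units from the controls, 118% of that of the other SCI libraries. Replicate 3 showed 0.93, or 98.4%. Replicate 2 showed 0.42 where the others showed 1.08, which is 39%. It was 41.6% for genes that were higher and 38.5% for genes that were lower, so the reduction was of similar size in both directions. Replicate 2 nevertheless moved in the same direction as the others in 491 of its 500 genes, compared with 495 for replicate 1 and 500 for replicate 3. It fell within the range of the controls in 62 genes (12.4%), compared with 10 (2%) and 7 (1.4%). The same 3 controls served for picking and for reading, which fixes part of the direction in each of these counts. Only the comparison among the 3 libraries is therefore read from them. That comparison is uneven as well, since replicate 2 helped to pick the genes for replicates 1 and 3. It also entered the median of the others for them, which was 0.86 and 0.94, beside 1.08 for replicate 2. The 3 percents are thus not on a common scale. With 200 or 1000 genes, or another scaling, replicate 2 stayed between 38.3% and 43.2%.

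**Figure D4:**
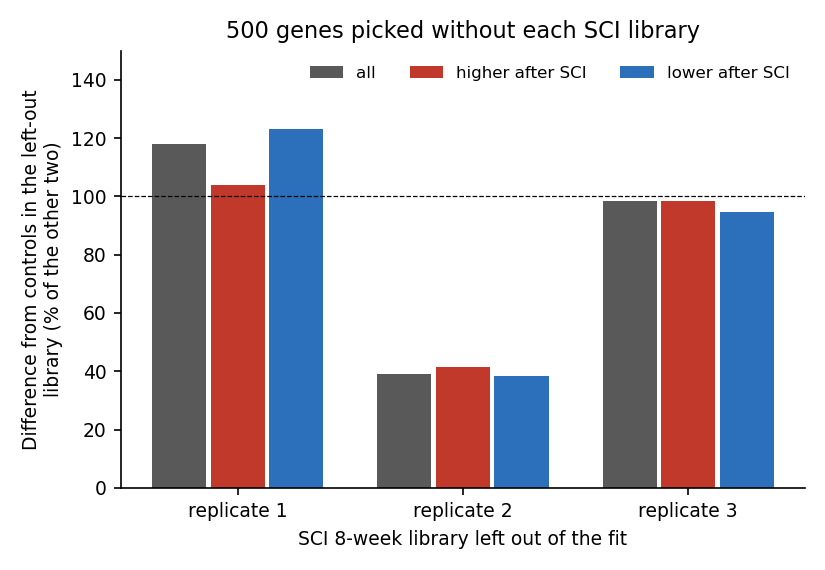
Bars give, for each SCI library at 8 weeks, its median difference from the controls as a percent of that of the other SCI libraries, over 500 genes picked without it (grey) and over those higher (red) or lower (blue) after SCI. Replicates 1 and 3 stand at 118% and 98.4%, near the dashed line at 100%, and replicate 2 stands at 39%.

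Genes chosen in other animals gave the same order. In the 16-week animals the edgeR test found 362 genes higher and 493 lower after SCI, a choice to which the 8-week libraries gave only their part of the shared spread. The median difference of the higher ones from the 8-week controls was 0.61 in SCI replicate 1, 0.22 in replicate 2 and 0.52 in replicate 3. For the lower ones it was -0.66, -0.24 and -0.48. The shares in the same direction as at 16 weeks were 97.5%, 84.3% and 97.8% for the higher genes and 91.9%, 76.9% and 86% for the lower genes. Replicate 2 was the SCI library nearest to no change on all 4 measures. Single controls, each read against the other controls, had medians of -0.08 to 0.14 and shares of 36.5% to 76% for the higher genes. For the lower genes they had medians of -0.06 to 0.04 and shares of 41.8% to 61.1%. Control replicate 1 held the highest of both shares among the controls. How near each control lay to SCI replicate 2 on these genes was not measured.

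Among the 1281 called genes, which all 3 SCI libraries helped to select, replicate 2 was the SCI library nearest to the controls in 411 of 499 higher genes (82.4%) and 569 of 782 lower genes (72.8%). Replicate 1 was the farthest in 299 (59.9%) and 519 (66.4%). The median difference from the controls over the higher genes was 0.76, 0.40 and 0.70 in replicates 1, 2 and 3, and over the lower genes it was -1.15, -0.61 and -0.95.

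Of the genes called when replicate 2 was left out, 1062 higher and 1515 lower genes could be read in all libraries. The difference of replicate 2 from the controls, as a percent of that of the other SCI libraries in the same gene, had a median of 42% over the higher genes and 38.4% over the lower genes. Gene by gene, replicate 2 had less than 25% of the change of the others in 292 higher (27.5%) and 469 lower (31%) genes. It had more than 75% in 132 higher (12.4%) and 224 lower (14.8%) genes. Each such value comes from 1 library, and how much of their spread is noise was not tested, so no difference between genes is read from them. At 16 weeks, 95.3% of the higher and 95.3% of the lower genes had the same direction, and 47.9% of all tested genes were positive.

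A smaller set of genes stood apart in replicate 2 by more than 1 log2 unit from both other SCI libraries. Of 13453 genes with an average level of at least 1 log2 CPM, 175 lay above and 69 below in replicate 2. The counts were 36 and 59 for replicate 1, of which 12 and 6 were nearer to the controls than in the other SCI libraries. They were 16 and 33 for replicate 3, of which 6 and 4 were nearer, and 40 to 81 in each direction for the controls. Genes that stood apart from their group were thus found in every library, and replicate 2 had more of them above. Of the 175, 114 were nearer to the control mean in replicate 2 than in the others. This selection fixes the order of the libraries in the values that follow, which only describe it. The median difference of the 114 from the controls was -0.02 in replicate 2, -1.50 in replicate 1 and -1.40 in replicate 3, and they took 2.72%, 1.28% and 1.33% of counts in that order. The remaining 61 were above the other SCI libraries and not nearer to the controls. They were a median of 1.32 log2 units above the control mean in replicate 2, -0.47 and -0.39 in replicates 1 and 3, and replicate 2 was the highest of all 21 libraries in 19 of them. The next highest libraries over these 61 genes were the controls of 16 weeks, with medians of 0.98, 0.43 and 0.70 in replicates 1, 2 and 3. The 69 genes below the other SCI libraries split into 30 that were nearer to the controls and 39 that were not. Over the 39, the median difference from the control mean was -1.46 in replicate 2, 0.49 in replicate 1 and 0.15 in replicate 3. Which cells or functions the 61 and 39 genes represent was not tested.

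The genes called at 8 weeks were also read at the other times. At 2 weeks 0 of the 499 higher and 0 of the 782 lower genes passed edgeR's quasi-likelihood test of SCI against 2-week controls, as did 0 of all 15225 genes. At an unadjusted p below 0.05, 45 of the higher genes (9.02%) and 205 of the lower genes (26.2%) had a 2-week difference of the same sign as at 8 weeks. Among all 15225 genes, 377 were positive and 639 negative at that level. The median 2-week log2 fold changes were 0.16 and -0.26. At 16 weeks against 16-week controls, 138 of the higher genes (27.7%) and 185 of the lower genes (23.7%) passed in the same direction, compared with 2.38% and 3.24% of all genes. The medians were 0.40 and -0.56. The direction was that of 8 weeks in 439 (88%) of the higher genes at 2 weeks and 469 (94%) at 16 weeks, and in 678 (86.7%) and 752 (96.2%) of the lower genes. Selection at 8 weeks enlarges the 8-week sizes beside those of other weeks. Tested gene by gene, the effect of SCI differed between 8 and 2 weeks in 3 genes (0.0197% of those tested) and between 8 and 16 weeks in 0. At an unadjusted p below 0.05 these counts were 1308 and 1010, and DESeq2 called 28 and 20.

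Set against the 8-week controls, the levels of these genes also varied among the uninjured bladders. The higher genes had a median difference from the mean of the 8-week controls of 0.46, 0.51 and 0.33 in the 2-week controls and of 0.57, 0.46 and 0.67 in the SCI bladders of 2 weeks, which overlap. In the 16-week controls they stood at 0.00, 0.10 and 0.19 and in the SCI bladders of 16 weeks at 0.55, 0.49 and 0.53. The lower genes stood at -0.38, -0.54 and -0.35 in the 2-week controls and -0.67, -0.58 and -0.91 in the SCI bladders of 2 weeks. In the 16-week controls they stood at -0.16, -0.11 and -0.22, and in the SCI bladders of 16 weeks at -0.80, -0.57 and -0.73. SCI replicate 2 of 8 weeks, at 0.40 and -0.61, thus lay within the range of the 2-week controls for the higher genes and within the range of the 16-week SCI bladders for the lower genes. The 0-week controls were at 0.54, 0.03 and 0.40 for the higher genes and at -0.42, 0.05 and -0.38 for the lower genes, and replicate 2 among them stood with the 8-week controls. All these values share the 8-week controls that chose the genes, so they are a description with no test.

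**Figure D5:**
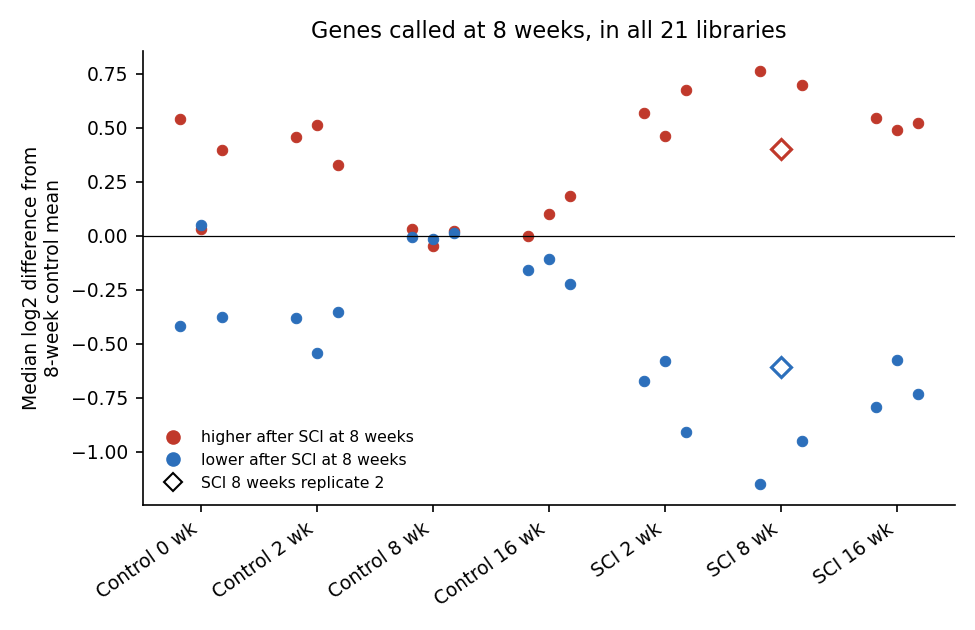
The vertical axis is the median log2 difference from the mean of the 8-week controls over the 499 genes higher (red) and the 782 genes lower (blue) after SCI at 8 weeks, for each of the 21 libraries by group. The SCI libraries of 8 weeks lie at 0.40 to 0.76 and -0.61 to -1.15 with replicate 2 (open diamonds) nearest to 0, and the 2-week controls are also away from 0.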

How the data were processed

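Full-thickness bladder RNA was depleted of ribosomal RNA and sequenced as paired-end reads of 51 bases. The authors deposited raw counts per Ensembl gene, not normalized. The submitters' processing notes name Trim Galore 0.6.10, FastQC 0.11.9, MultiQC 1.13, STAR 2.7.10a, SAMtools 1.17, featureCounts 2.0.3 and the build Rnor_6.0. The annotation release and strand setting are not given in the sources used here, so overlapping, antisense and near-identical genes may share reads.

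Genes passing filterByExpr (15225 of 32754) were fitted in edgeR 4.0.16 (R 4.3.3) with TMM scaling, 7 group means over 21 libraries, no covariate and 14 residual degrees of freedom. Quasi-likelihood p-values were adjusted over all genes by Benjamini-Hochberg, and contrasts were SCI minus control at 8 weeks and its difference from 2 and 16 weeks. Per-library log2 CPM used a prior count of 2. Printed genes were, for each direction, the pair of called genes that changed most, at 1 log2 CPM or more and without overlap. The required symbol could not be applied, nor could gene lists. The comparison, sets and lists were chosen with earlier results of these data known. The procedure was tested on simulated data. In a check for libraries deposited more than once, every pair of replicates differed by more than counting noise (chi-square per degree of freedom 7.41 to 34.2), and titles carry separate animal codes, and the labels' batch field is 1 for all libraries. Alternatives were DESeq2 1.42.0, other scalings, filters and sample sets, and each library left out. The 8-week libraries held 9157219 to 10740933 counts.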

Additional observations from a re-analysis of the deposited data

Results flagged for a closer look

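The effect of SCI differed between 8 and 2 weeks in 3 genes by a test of the difference itself (adjusted p below 0.05, edgeR's quasi-likelihood test with Benjamini-Hochberg adjustment). In each of them SCI bladders were lower than controls at 8 weeks and not at 2 weeks. The differences of the log2 fold changes, 8 minus 2 weeks, were -5.04, -1.66 and -2.10, with adjusted p of 0.0405, 0.0127 and 0.0405. The log2 fold changes were -3.58, -1.38 and -1.10 at 8 weeks and 1.46, 0.28 and 1.01 at 2 weeks. Their average levels were 0.571, 6.62 and 2.34 log2 CPM. The gene with the largest difference thus lay under the 1 log2 CPM required of printed genes. Between 0 and 4 genes passed when 1 library was left out, and 0 passed without control replicate 2, SCI replicate 1 or SCI replicate 3 of 8 weeks or control replicate 1 of 2 weeks.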

How the results depend on the processing

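Against 1281 calls at 8 weeks (499 higher, 782 lower), DESeq2 called 1960 (800 higher), scaling by total count 3088 (2435 higher), the 8-week groups alone 322 (98 higher, 224 lower), and the fit without the 0-week controls 2466 (1105 higher, 1361 lower). The genes whose SCI effect differed between 8 and 2 weeks, 3 in the main test, numbered 28 by DESeq2, 34 by the likelihood ratio test and 1 each by total count scaling, by the groups compared alone and without the 0-week controls. Between 8 and 16 weeks, 0 in the main test, DESeq2 called 20 and the likelihood ratio test 24. Leaving out 1 library gave 32 (without SCI replicate 1) to 2585 (without SCI replicate 2) calls at 8 weeks, 3 to 1064 higher and 29 to 1521 lower. It gave 0 to 4 for the difference from 2 weeks and 0 to 23 for that from 16 weeks, with 23 without control replicate 2 of 16 weeks. The cause of these shifts was not tested. Leaving out libraries of the groups not compared, and ranking abundant genes without replicate 2 of the 0-week controls, were alternatives chosen after seeing the data.

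Replicate numbers were not taken as pairs, since the same-numbered deviations of control and SCI correlated at 0.115, 0.0805 and -0.0223. With the replicate block 1783 genes were called (662 higher, 1121 lower), of which 1262 were among the 1281, and the block gave 2 genes for the difference from 2 weeks. The 4 printed genes were refitted under 15 alternatives (14 for ENSRNOG00000003745), which did not include leaving out libraries of other weeks. None reversed, and each lost the call under at least 1. The gene lists and cell type markers could not be recomputed for want of names. Among genes under 1 log2 CPM the median called change was 2.04 log2 units, and whether depth sets this size was not tested.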

Other observations

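Genes that went from no count to some count were weakly expressed. At 0 in every 8-week control and counted in any SCI library of that week were 1259 genes, and 1030 showed the reverse. Of these, 58 and 47 had a count in every library of the other group. The highest totals over the 3 libraries, among all 1259 and all 1030 genes, were 39 and 37 counts.

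SCI replicate 2 of 8 weeks was nearer to the mean of the 16-week SCI bladders, at a root mean square log2 difference of 0.393, than to that of its 8-week controls at 0.461. Its distance to the mean of the 16-week controls was 0.425. From the mean of the other SCI bladders of 8 weeks, a mean over fewer libraries, replicate 2 was at 0.481, and replicates 1 and 3 were at 0.415 and 0.34. SCI replicates 1 and 3 were at 0.387 and 0.338 from the 16-week SCI mean and at 0.631 and 0.56 from the 8-week control mean.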
